A study of Mus musculus with 2 samples.

Results

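The genes described here are the mouse histone genes whose symbols begin with Hist1h, Hist2h, Hist3h or Hist4h, which name the replication-dependent histone clusters. They were chosen by symbol alone, with no use of measured values, and 69 of the 27775 listed features match. By family they are 6 genes of linker histone H1, 19 of H2A, 19 of H2B, 12 of H3 and 13 of H4. By gene cluster, 55 belong to Hist1, 11 to Hist2, 2 to Hist3 and 1 to Hist4.

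Single-cell RNA was measured in lacrimal glands, the glands that make the watery part of tears, from CD1 mice, an outbred wild-type strain. One library came from postnatal day 4 (P4) and the other from embryonic day 16 (E16). For both stages glands were pooled and dissociated with Liberase TM and DNaseI, and how many animals went into a pool was not stated in the labels used here. With 1 library per stage no difference between the stages has a replicate check, and stage, pool, dissociation and library cannot be told apart.

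Chromatin is built on nucleosomes, each a core of histones H2A, H2B, H3 and H4, and linker histone H1 binds the DNA where it enters and leaves the core. A dividing cell must make a full new set of histones while it copies its DNA, and most of the Hist1 to Hist4 genes are known for transcripts made in S phase. Those messages usually end in a short stem-loop, bound by the protein SLBP, in place of a poly(A) tail. A few members, among them Hist1h2bc, Hist1h1c and Hist2h2be, are known for polyadenylated transcripts that are also made outside S phase. Libraries primed with oligo-dT favour polyadenylated RNA, so a UMI count (a UMI is a tag that marks one captured molecule) of a member need not follow its amount in the cell.

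The annotated transcripts show both kinds of 3′ end. In GENCODE M21 (GRCm38) 67 of the 69 members were found by gene identifier and 65 of these are protein coding. Most lie on chromosome 13, with 53 members, and the others on chromosomes 3 (11 members), 11 (2 members) and 6 (1 member). The histone stem-loop, searched on the sense strand as a stem of 6 bases, a loop of 4 bases and the reverse complement of the stem, was present in 44 of 67 members. It was present in 68 of the 21901 coding genes of the annotation, or 0.31%. The stem-loops of the members with the most UMIs and of Hist1h4d, a member seen in E16 only, are given next to set the 3′ ends beside the counts. The letters are DNA read 5′ to 3′ on the sense strand, and the capitals mark the 2 arms of the stem.
Hist1h2ae: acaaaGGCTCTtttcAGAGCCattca
Hist1h1e: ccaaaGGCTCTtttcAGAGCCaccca
Hist1h1c: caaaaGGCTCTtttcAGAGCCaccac
Hist3h2a: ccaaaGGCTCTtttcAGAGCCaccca
Hist3h2ba: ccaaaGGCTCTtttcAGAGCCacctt
Hist2h2ac: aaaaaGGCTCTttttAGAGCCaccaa
Hist1h4i: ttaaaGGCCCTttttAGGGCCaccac
Hist1h4d: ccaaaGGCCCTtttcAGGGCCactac

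Across the 44 members 8 different 16-base cores occurred, and 24 members shared the core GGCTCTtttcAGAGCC. The H4 genes printed carry GGCCCT in the first arm, where the H1, H2A and H2B genes printed carry GGCTCT. Several annotated transcripts run on past the stem-loop. In Hist1h2ae the transcript goes on for 151 bases, in Hist1h1c for 840, in Hist1h1e for 1153 and in Hist3h2a for 1643. The transcripts of Hist1h1b, Hist1h1a, Hist1h2an, Hist1h2bc and Hist2h2be as annotated hold no such stem-loop. Some annotated transcripts are short, with 393 bases for Hist1h2an and 743 for Hist1h1b. A stem-loop or poly(A) signal past an annotated end would be missed, so absence here does not show that a gene lacks it. A poly(A) signal (AATAAA or ATTAAA, sense strand, in the last 50 bases) was present in 17 of 67 members, or 25.4%, against 77.9% of coding genes. These 17 members held 43.1% of the P4 histone UMIs and 28.6% of the E16 histone UMIs. The match is a description of the annotation and does not show which end the captured RNA had.

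The promoters shared short motifs by family. RefSeq promoters (GRCm38.p6, 250 bases before to 50 after the start) were matched for 61 members. CCAAT, on either strand, was in the promoters of 52 of these, or 85.2%, against 41.1% of all genes with a promoter. The 52 were all 6 H1, 17 H2A, 16 H2B and 10 H3 genes matched and 3 of 12 H4 genes. TATAAA was in 57.4% of members and 15.7% of all genes. ATTTGCAT, the octamer described for H2B promoters, was in 7 of 17 H2A and 7 of 16 H2B genes, against 1.97% of all genes. These counts are not independent, since windows of some H2A and H2B genes on opposite strands overlap. Examples with the octamer are Hist1h2ae with Hist1h2bg, Hist1h2ah with Hist1h2bk and Hist1h2aa with Hist1h2ba. A site found on either strand can thus count for both genes. AAACACA, described for H1 promoters, was in 5 of 6 H1 genes, against 8.22% of all genes. The promoters of the H1 gene and the H2A gene with the most UMIs in E16 are shown as examples, chosen by that count alone. No link between these motifs and the levels was tested. In both, capitals mark the CCAAT and TATA boxes on either strand. In Hist1h1b they also mark the AAACACA motif, and in Hist1h2ae the octamer, which lies there as its reverse complement ATGCAAAT. A TATAAA likewise lies on the other strand of the Hist1h2ae window, as TTTATA. That window overlaps the promoter window of Hist1h2bg, at chr13:23571150-23571449 on the plus strand. Both the TATAAA and the octamer read forward on the strand of Hist1h2bg, so neither is assigned to Hist1h2ae. Hist1h1b is at chr13:21780576-21780875 and Hist1h2ae at chr13:23571171-23571470, both on the minus strand.
Hist1h1b: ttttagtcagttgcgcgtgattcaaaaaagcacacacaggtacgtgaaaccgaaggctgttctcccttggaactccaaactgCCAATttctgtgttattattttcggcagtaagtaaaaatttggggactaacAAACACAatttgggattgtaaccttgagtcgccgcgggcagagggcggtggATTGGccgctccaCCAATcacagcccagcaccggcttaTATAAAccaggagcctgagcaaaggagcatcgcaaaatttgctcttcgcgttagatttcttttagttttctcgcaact
Hist1h2ae: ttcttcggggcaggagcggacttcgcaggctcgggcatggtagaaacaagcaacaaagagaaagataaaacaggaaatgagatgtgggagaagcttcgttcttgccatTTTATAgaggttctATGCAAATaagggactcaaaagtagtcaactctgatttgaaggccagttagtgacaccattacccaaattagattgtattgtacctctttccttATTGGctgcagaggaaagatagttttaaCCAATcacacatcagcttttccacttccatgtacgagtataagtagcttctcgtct

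Barcodes with at least 200 detected genes were used, which were 406 of 687 in P4 and 259 of 437 in E16. They held 1975814 UMIs in P4 and 1711606 in E16, with a median per cell of 3767 in P4 and 5802 in E16. The libraries shared 0 cell barcodes. Cells were clustered without the members and without cell-cycle genes and named from markers. Epithelial-like cells numbered 98 in P4 and 86 in E16, and mesenchyme-like cells 177 in P4 and 99 in E16. In mesenchyme-like cells the stages lay mostly in different clusters, since 3 clusters held 78, 45 and 44 of the P4 cells beside 9, 4 and 3 of the E16 cells, and the other 2 held 9 and 1 beside 60 and 23. In epithelial-like cells 1 cluster, led by Mia, Fxyd3 and Krt14, held 34 of the P4 and 47 of the E16 cells. A further 27 of the 98 P4 cells formed a cluster led by the secretory genes Dcpp3, Dcpp2 and Dcpp1, in which 9 epithelial markers were detected although its leading genes held none. The other classes were small, with 47 macrophage-like cells in P4 and 1 in E16, 18 lymphoid-like cells in P4 and 0 in E16, 22 endothelial-like in P4 and 10 in E16, 12 erythroid-like in P4 and 25 in E16, and under 20 per library of any other.

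The histone sum was higher in the E16 library. A UMI was found for 30 of 69 members in P4 and for 46 in E16. Of the 69 members 27 were seen in both libraries, 3 in P4 only, 19 in E16 only and 20 in neither. The same counts over all features are not given here, and E16 cells had the higher median depth. No difference in detection between the stages is therefore read from these counts. The 20 unseen members included Hist1h1t, Hist1h2aa and Hist1h2ba, known from testis. Summed over the members there were 661 UMIs in P4 and 1924 in E16. Per 1000000 UMIs (CPM) the sum was 335 in P4 (310 to 361) and 1124 in E16 (1074 to 1175). The ratio P4 over E16 was 0.298 (0.272 to 0.325). All intervals here are 95% exact intervals that cover counting error only. The sum rests on few genes, since the 5 members with the most UMIs held 77.3% of the P4 sum and 70.6% of the E16 sum.

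The families did not share this difference evenly. H1 had 161 UMIs in P4 and 979 in E16, with a CPM ratio of 0.142 (0.120 to 0.168). H4 had 18 UMIs in P4 and 101 in E16, with a ratio of 0.154 (0.0880 to 0.257), and H3 had 10 in P4 and 48 in E16, with a ratio of 0.180 (0.0814 to 0.361). H2A had 221 UMIs in P4 and 612 in E16, with a ratio of 0.313 (0.267 to 0.365). These 4 families were lower in P4, and their intervals lie below 1. H2B had 251 UMIs in P4, against 184 in E16, and its ratio of 1.18 has an interval that includes 1 (0.973 to 1.44). H1 made up 24.4% of the P4 histone UMIs and 50.9% of the E16 histone UMIs, while H2B made up 38.0% in P4 and 9.56% in E16. Although nucleosomes hold equal numbers of the 4 core histones, H3 and H4 together had few UMIs in either library, and how well each message is captured was not measured.

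Linker histone genes had the largest summed count of any family in E16, though not in P4. Hist1h1b, at chr13:21779883-21780625 on the minus strand, encodes the somatic linker histone H1.5. It had 56 UMIs in 19 cells of P4 and 686 UMIs in 72 cells of E16. That is 28.3 CPM in P4 and 401 CPM in E16, and the ratio was 0.0707 (0.0529 to 0.0929). One P4 cell held 26 of the 56 UMIs, and without the cell with the most histone UMIs in each library the ratio was 0.0406. Hist1h1e, at chr13:23620629-23622558, encodes H1.4. It had 14 UMIs in P4 and 154 in E16, with a ratio of 0.0788 (0.0421 to 0.136). Hist1h1a, at chr13:23763666-23764406, encodes H1.1. It had 5 UMIs in P4 and 84 in E16, with a ratio of 0.0516 (0.0163 to 0.125). All 3 were lower in P4. Hist1h1d, which encodes H1.3, was seen only in E16, with 5 UMIs. Hist1h1c, at chr13:23738808-23740367, encodes H1.2 and is one of the members known for polyadenylated transcripts. It had 86 UMIs in P4 and 50 in E16, or 43.5 CPM in P4 and 29.2 CPM in E16, and a ratio of 1.49 (1.04 to 2.16). That ratio was 1.05 with CPM averaged over cells, and its interval included 1 without the 10 cells with the most histone UMIs in each library, at 1.29 (0.831 to 2.03), and with every cell thinned to 1342 UMIs, at 1.5 (0.622 to 4.0).

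Among H2A genes, Hist1h2ae, at chr13:23570517-23571220, had 31 UMIs in 17 cells of P4 and 282 UMIs in 58 cells of E16. Its levels were 15.7 CPM in P4 and 165 CPM in E16, with a ratio of 0.0952 (0.0635 to 0.138). Hist1h2an, at chr13:21786826-21787218, had 6 UMIs in P4, against 129 in E16, and Hist2h2ac, at chr3:96220361-96220880, had 2 in P4 and 35 in E16. Both were lower in P4, with ratios of 0.0403 (0.0145 to 0.0901) and 0.0495 (0.00577 to 0.193). With CPM averaged over cells the Hist1h2ae ratio was 0.247, and with every cell thinned to 1342 UMIs that of Hist2h2ac was 0.668. Hist3h2a, at chr11:58954685-58956830, did not show this difference. It had 112 UMIs in P4 and 88 in E16, or 56.7 CPM in P4 and 51.4 CPM in E16, and a ratio of 1.10 (0.827 to 1.47). Without the 10 cells with the most histone UMIs in each library that ratio was 0.661.

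Hist1h2al stood apart from every other member with 30 or more UMIs. It had 53 UMIs in 35 cells of P4 and 0 in E16. Set against a floor of 3 counts in the E16 library, it was 15.3-fold higher in P4. That is a point value and no lower limit, since the exact interval of the ratio reaches below it. GENCODE M21 lists Hist1h2al as a processed pseudogene, at chr13:51202727-51203065 on the minus strand, with Gm44341 antisense to it. Of the 50-base windows of its transcript, 67.6% also occur in other annotated genes. No source used here says whether counting used strand, so these UMIs cannot be assigned with certainty to Hist1h2al.

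H2B genes were led by Hist1h2bc. At chr13:23684199-23692908 on the plus strand, it had 204 UMIs in 72 cells of P4 and 107 UMIs in 54 cells of E16. Its levels were 103 CPM in P4 and 62.5 CPM in E16, with a ratio of 1.65 (1.30 to 2.11), or 1.27 (0.708 to 2.34) with cells thinned to that 1 depth. It was the member with the most UMIs in P4, with 30.9% of the histone sum there, against 5.56% in E16. Hist3h2ba, at chr11:58948920-58949533, had 30 UMIs in P4 and 48 in E16, with a ratio of 0.541 (0.331 to 0.872), or 0.258 with CPM averaged over cells. Among cells with a UMI of at least 1 of the cycle genes Mki67, Top2a, Pcna and Rrm2 it was 0.900 (0.529 to 1.52). Hist2h2be, the other member known for polyadenylated transcripts, had 2 UMIs in each library. Hist1h2bj had 3 UMIs in P4, against 6 in E16, and Hist1h2bg had 1 in P4 and 5 in E16. An identifier that the files call Hist2h2bb had 6 UMIs in P4 and 0 in E16. In GENCODE M21 that identifier is a long noncoding RNA, Gm42743, which overlaps Hist2h2bb on the same strand.

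H3 and H4 genes were close to the limit of detection. The H3 genes Hist1h3c, Hist1h3b and Hist1h3h had 0 UMIs in P4, against 17, 9 and 9 UMIs in E16. Of the 9 Hist1h3h UMIs, 7 lay in 1 cell. Hist2h3c2 had 5 UMIs in P4, against 1 in E16, and Hist2h3c1 had 3 in P4 and 2 in E16. Among H4 genes Hist1h4i, at chr13:22040636-22041362, had 14 UMIs in P4 and 67 in E16, with a ratio of 0.181 (0.0940 to 0.325), and 1 E16 cell held 26 of the 67. Hist1h4d and Hist1h4b had 0 UMIs in P4, against 17 and 7 in E16. Hist4h4 had 2 UMIs in P4, against 4 in E16, and Hist1h4h had 2 in P4 and 3 in E16. A count of 0 in P4 allows up to 1.52 CPM. The 43 members not named for their values had 24 UMIs in all in P4 and 107 in E16, and none of them more than 9 in P4 or 26 in E16.

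**Figure D1:**
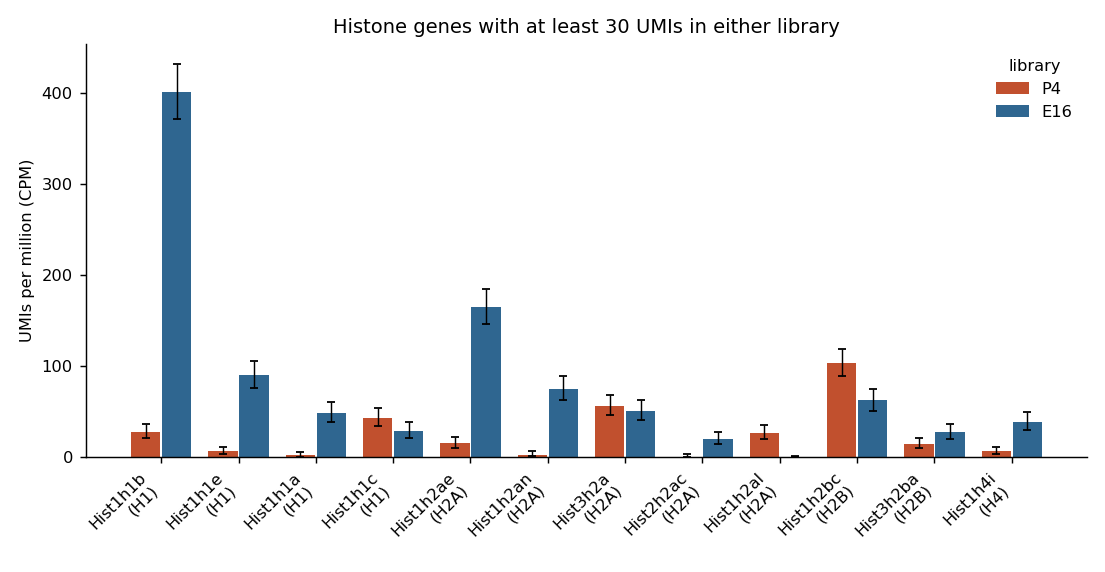
CPM of the 12 histone genes with at least 30 UMIs in either library, ordered by family, with a bar for P4 to the left of a bar for E16. Lines are exact 95% Poisson intervals, and the axis starts at 0. Hist1h1b was at 28.3 CPM in P4 and 401 CPM in E16, whereas Hist1h2bc was at 103 CPM in P4 and 62.5 CPM in E16.

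In the plot of levels by gene the bars of Hist1h1b, Hist1h1e, Hist1h1a, Hist1h2ae, Hist1h2an, Hist2h2ac, Hist3h2ba and Hist1h4i were lower in P4, and those of Hist1h2bc, Hist1h1c, Hist1h2al and Hist3h2a were higher there. The plotted intervals of Hist1h1c, Hist3h2a and Hist3h2ba overlapped between the libraries. With at least 30 UMIs over both libraries 13 members could be compared. Of these, 8 were at least 2-fold lower in P4, where 14.2% of all 8770 genes compared were, and 1 was at least 2-fold higher, where 8.48% of genes were. Their median log2 ratio was -2.47, beside -0.20 over all genes. Members that passed the minimum through a high count in one library had to differ, so this count describes those genes and not the 69.

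Reads of near-identical copies are often left out of UMI counts or split between genes, which bears on this family. In GENCODE M21, 9 members share under 10% of their 50-base windows with other genes, and they had 151 UMIs in P4 and 833 in E16. A further 25 members share 10% to 50%, with 421 UMIs in P4 and 831 in E16. The 33 members that share 50% or more had 88 UMIs in P4 and 255 in E16. The least shared family is H1, with a median of 1.13%, and Hist1h1b and Hist1h1a share 0 windows. Hist1h2an, in contrast, shares 85.8%. In all 26 members overlap another annotated gene. Hist1h1e overlaps Hist1h2be and Gm11398 on its own strand, Hist3h2a overlaps Trim17 on its own strand and Gm44313 antisense, and Hist1h2ae and Hist1h2an have Gm44394 and Gm44346 antisense. Their counts are uncertain to that extent, and 3′ capture, alignment and sharing were not separated.

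The difference between stages was present within the cell classes that could be compared. In epithelial-like cells the members had 409 UMIs in P4 and 1033 in E16, or 555 CPM in P4 (503 to 612) and 1686 CPM in E16 (1585 to 1792). The ratio was 0.329 (0.293 to 0.370). In mesenchyme-like cells they had 147 UMIs in P4 and 596 in E16, or 181 CPM in P4 (153 to 213) and 913 CPM in E16 (841 to 989), with a ratio of 0.198 (0.164 to 0.238). This ratio rests in part on single cells, since it was 0.449 without the 10 cells with the most histone UMIs in each library. It was also 0.0901 when every class was a candidate name for every cluster, which left 39 E16 mesenchyme-like cells. In the epithelial-like cells all genes had a median log2 ratio of -0.53. Leaving the 50 most abundant genes out of the totals, which hold 40.1% of the P4 and 18.1% of the E16 epithelial-like UMIs, moved that median by 0.45 and the histone ratio to 0.450.

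Endothelial-like, mural-like and glial-like cells gave values in the same direction. Endothelial-like cells had 356 CPM in P4 and 1177 CPM in E16, with a ratio of 0.302 (0.195 to 0.456). Mural-like cells, the smooth muscle cells and pericytes of vessels, had 264 CPM in P4 and 1087 CPM in E16, with a ratio of 0.243 (0.102 to 0.501). Glial-like cells had 962 CPM in P4 and 1739 CPM in E16, from 19 and 73 UMIs in 4 and 6 cells. In E16 the glial-like and epithelial-like levels had overlapping intervals, and endothelial-like, mural-like and then mesenchyme-like cells followed. In P4, 18 lymphoid-like cells had 599 CPM, close to the epithelial-like value, and macrophage-like cells had 137 CPM. Erythroid-like cells had 57.8 CPM in P4 (15.8 to 148) and 74.2 CPM in E16 (39.5 to 127). Cells like antigen-presenting cells or monocytes had 108 CPM in P4 and 69.9 CPM in E16, from 5 and 2 UMIs, with intervals that overlap the erythroid-like ones.

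Erythroid-like cells also serve as a rough gauge of RNA that is free in the suspension, since maturing red cells have little transcription of their own. Their totals include their own haemoglobin RNA, so their histone CPM and thinned shares can understate free RNA. A histone UMI was found in 3 of 12 erythroid-like cells of P4 and 10 of 25 of E16, or 25% of the P4 and 40.0% of the E16 cells, at median depths of 5439 UMIs in P4 and 6700 in E16. The shares in epithelial-like cells were 60.2% in P4 and 82.6% in E16, at lower median depths of 3371 UMIs in P4 and 4877 in E16. In mesenchyme-like cells they were 39.5% in P4 and 62.6% in E16. With every cell thinned to 1342 UMIs, and cells below that left out (41 in P4 and 15 in E16), the epithelial-like shares were 34.7% in P4 and 59.2% in E16. The mesenchyme-like shares were then 15.4% in P4 and 35.1% in E16, beside 16.7% in P4 and 8.0% in E16 erythroid-like cells. The thinned P4 mesenchyme-like share is not above the erythroid-like one, which rests on 2 of 12 cells (2.09% to 48.4%), so no expression is read from that share alone. By level, the P4 mesenchyme-like cells had 181 CPM (153 to 213), above the interval of the erythroid-like cells. Without Hist1h2bc, Hist1h1c and Hist2h2be they had 127 CPM (104 to 154), where the P4 erythroid-like cells had 0 UMIs, which allows up to 43.4 CPM.

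The differences by class did not apply to each gene alike. In epithelial-like cells Hist1h1b had 36 UMIs in P4 and 314 in E16, with a ratio of 0.0954 (0.0656 to 0.135), and in mesenchyme-like cells 11 in P4 and 257 in E16, with a ratio of 0.0344 (0.0170 to 0.0626). Hist1h2ae had 9 UMIs in P4 and 177 in E16 in epithelial-like cells, and 8 in P4 and 79 in E16 in mesenchyme-like cells. Both genes were lower in P4 in both classes. Single cells weighed on these ratios: that of Hist1h1b was 0.0309 in epithelial-like cells without the cell with the most histone UMIs in each library, and 0.0959 in mesenchyme-like cells without the 10 such cells, where Hist1h2ae had 0 UMIs left in P4. Hist1h1b was also present in E16 endothelial-like cells at 667 CPM and mural-like cells at 492 CPM, against 71.2 CPM in P4 endothelial-like cells. Hist1h1b and Hist1h2ae had 1 and 0 UMIs in the 25 erythroid-like cells of E16.

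Hist1h2bc differed between classes. In epithelial-like cells it had 155 UMIs in P4 and 39 in E16, or 210 CPM in P4 and 63.7 CPM in E16, a ratio of 3.31 (2.31 to 4.82). In mesenchyme-like cells it had 24 UMIs in P4 and 32 in E16, a ratio of 0.603 (0.340 to 1.06). The P4 mesenchyme-like level, 29.6 CPM, is not above the 43.4 CPM (3 UMIs) of P4 erythroid-like cells. The epithelial-like ratio rested partly on a few deep cells and was 1.73 without the 10 cells with the most histone UMIs in each library, and 12.2 at 1 depth. Glial-like cells had 506 CPM of Hist1h2bc in P4 and 524 CPM in E16, from 10 and 22 UMIs, more than any other class with over 1 cell. Hist1h1c in epithelial-like cells had 54 UMIs in P4 and 21 in E16, with a ratio of 2.14 (1.27 to 3.73), and this was 1.15 without those 10 cells and 8.11 at 1 depth.

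Most Hist3h2ba UMIs lay in epithelial-like cells. In P4, 28 of its 30 UMIs lay in 19 epithelial-like cells, 1 in a glial-like cell and 1 in a mesenchyme-like cell. In E16, 44 of its 48 UMIs lay in 29 epithelial-like cells and 4 in glial-like cells. By level the few glial-like cells were no lower, at 50.6 CPM in P4 and 95.3 CPM in E16, from 1 and 4 UMIs. Mesenchyme-like cells thus had 1 UMI in 177 cells of P4 and 0 in 99 cells of E16, where a count of 0 allows up to 4.59 CPM, against 38.0 CPM in P4 and 71.8 CPM in E16 epithelial-like cells. The ratio in epithelial-like cells was 0.529 (0.317 to 0.869), or 0.289 without the 10 cells with the most histone UMIs and 0.127 at 1 depth. Its interval included 1 with totals without the 50 most abundant genes, at 0.723, without the Dcpp cluster, at 0.772, and among cells with a cycle-gene UMI only, at 0.786. Its neighbour Hist3h2a was spread more widely. It had 53 UMIs in P4 and 52 in E16 in epithelial-like cells, 41 in P4 and 17 in E16 in mesenchyme-like cells, and 7 in P4 and 10 in E16 in endothelial-like cells. Its ratio was 0.848 (0.567 to 1.27) in epithelial-like cells, or 1.77 at 1 depth and 0.422 without those 10 cells, and 1.94 (1.08 to 3.64) in mesenchyme-like cells, or 1.17 (0.608 to 2.31) there without the cell with the most histone UMIs in each library. The 53 Hist1h2al UMIs of P4 were also spread, with 32 in epithelial-like cells, 15 in mesenchyme-like cells and 6 in 4 other classes.

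Within the epithelial-like cells 11 members reached 30 UMIs over both libraries. Of these, 6 were at least 2-fold lower in P4, where 27.1% of 4966 genes were, and 3 were at least 2-fold higher, where 7.23% were. In mesenchyme-like cells 5 of 8 were at least 2-fold lower in P4, where 13.7% of 5753 genes were, and 0 were at least 2-fold higher, where 6.8% were. Here too members that passed the minimum through a high count in a single library had to differ. The counts in both classes therefore describe those genes and not all members.

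The 3 members known for polyadenylated transcripts were also summed. This sum is in effect that of Hist1h2bc and Hist1h1c, since Hist2h2be had 2 UMIs in each library. Together they had 292 UMIs in P4 and 159 in E16, or 148 CPM in P4 and 92.9 CPM in E16, and a ratio of 1.59 (1.31 to 1.94). The ratio was 1.15 when CPM was averaged over cells, and 1.36 (0.844 to 2.25) at 1 depth. The other 66 members had 369 UMIs in P4 and 1765 in E16, or 187 CPM in P4 and 1031 CPM in E16, and a ratio of 0.181 (0.161 to 0.203). In epithelial-like cells the 3 had a ratio of 2.82 (2.11 to 3.80), or 1.54 without the 10 cells with the most histone UMIs and 11.1 at 1 depth, and the others 0.170 (0.146 to 0.199). In mesenchyme-like cells the 3 had a ratio of 0.823 (0.528 to 1.28) and the others 0.150 (0.120 to 0.185). Among the other 66, Hist3h2a and Hist1h2al were not lower in P4 either.

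**Figure D2:**
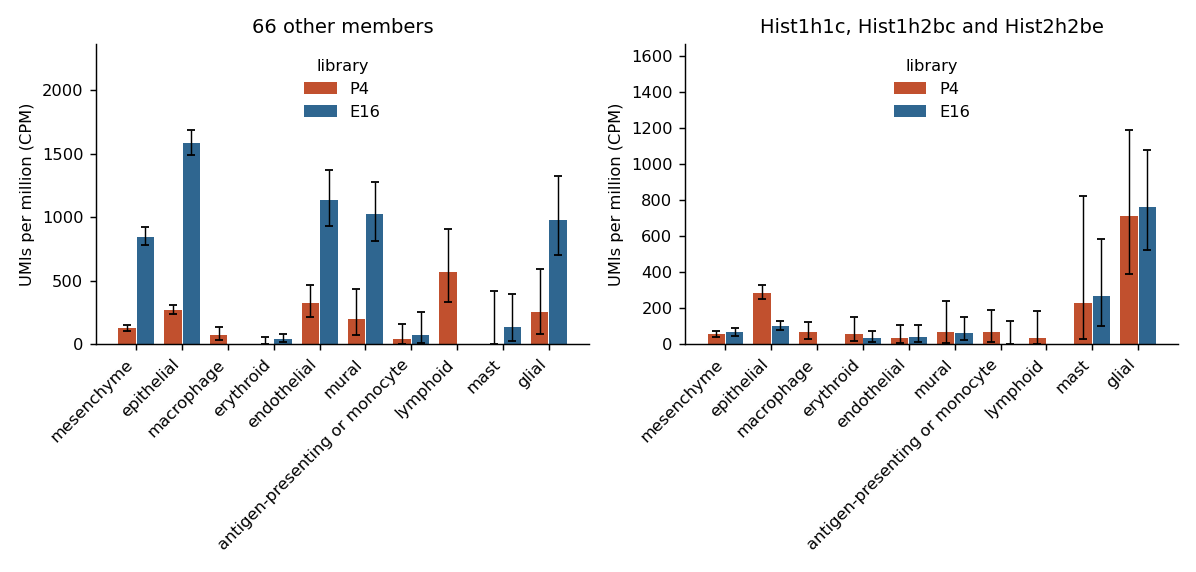
CPM by cell class of the 66 other members (left) and of Hist1h1c, Hist1h2bc and Hist2h2be together (right), with a bar for P4 to the left of a bar for E16 and exact 95% Poisson intervals, for classes with at least 4 cells in the library. In epithelial-like cells the 66 were at 270.2 CPM in P4 and 1585 CPM in E16, and the 3 at 285 CPM in P4 and 101 CPM in E16.

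The plot of levels by class sets both groups of genes side by side on separate scales. The 66 were lower in P4 in epithelial-like, mesenchyme-like, endothelial-like, mural-like and glial-like cells, while the 3 were higher in P4 in epithelial-like cells, and their highest bars were those of the few glial-like cells.

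Histone UMIs were concentrated in few cells. At least 1 was found in 179 of 406 cells of P4 and 171 of 259 of E16. Of those, 121 cells of P4 and 77 of E16 had only 1 or 2, whereas 20 cells of P4 and 46 of E16 had 10 or more and held 49.9% and 82.8% of the histone UMIs. The 10 cells with the most held 30.9% in P4 (27.4 to 34.5) and 39.3% in E16 (37.1 to 41.5). The same 10 cells held 7.61% of all UMIs in P4 and 8.25% in E16. Among all genes in the same range of UMIs, the median share in 10 cells was 21.2% in both libraries, and 98 of 715 genes in P4 and 6 of 214 in E16 reached the share of the histone sum. Thinned to 1 depth the order turned round, with 36.4% in P4 and 30.4% in E16, over 365 and 244 cells, so no order of the stages is read from it. Per member, 3 of 7 with at least 30 UMIs in P4 had 50% or more of them in 10 cells, where 13.3% of genes did, and 8 of 11 in E16, where 15.7% did.

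**Figure D3:**
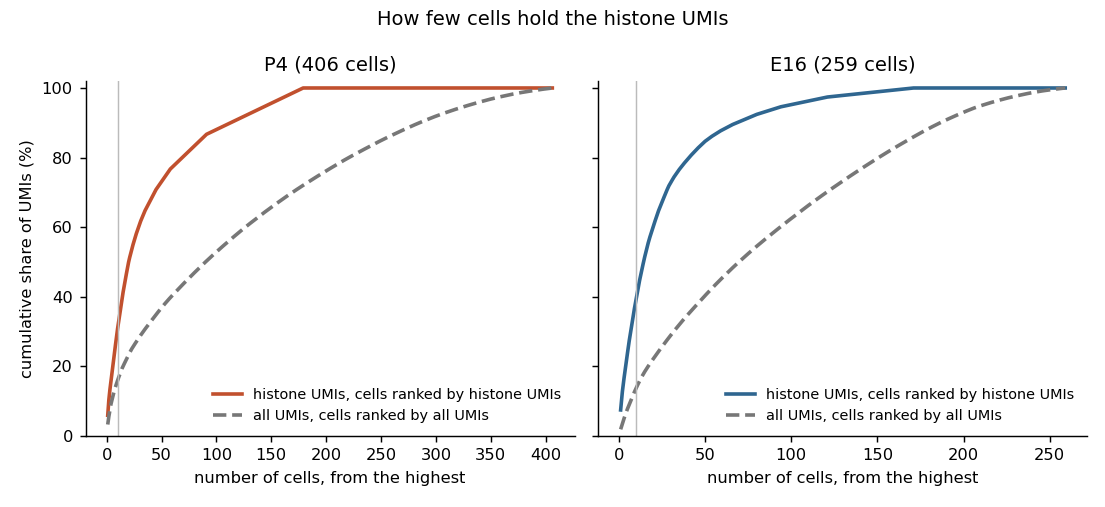
Cumulative share of histone UMIs against the number of cells, ranked from the cell with the most histone UMIs (solid), and of all UMIs with cells ranked by all UMIs (dashed), for P4 (left) and E16 (right). The grey line marks 10 cells. The first 10 cells held 30.9% of the histone UMIs in P4 and 39.3% in E16, against 15.9% of all UMIs in P4 and 13.7% in E16.

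The curves of cumulative share climb steeply in both libraries and flatten after the first cells, and they can be read down to single cells. The P4 cell with the most histone UMIs was epithelial-like and had 39 among 12593 UMIs, of which 26 were Hist1h1b. It also had 1 UMI of Mki67, 7 of Top2a, 4 of Pcna and 11 of Rrm2. The next 2 P4 cells, with 29 and 20 histone UMIs, were epithelial-like cells of 24194 and 25608 UMIs. Their leading member was Hist1h2bc, with 15 and 10 UMIs. The 3 leading E16 cells were epithelial-like, with 143, 101 and 77 histone UMIs among 31749, 20957 and 15096 UMIs. Hist1h1b led in each, with 54, 33 and 48 UMIs, and Hist1h2ae followed, with 24, 22 and 8. They carried 17, 19 and 12 UMIs of Top2a and 14, 17 and 15 of Rrm2. None of these 6 cells was called a doublet. Thus 1 of the 3 leading P4 cells and all 3 leading E16 cells were led by Hist1h1b. Among the 10 leading cells of each library, 9 in P4 and 10 in E16 had a UMI of at least 1 of those 4 genes, and 8 in P4 and 3 in E16 were epithelial-like.

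The 4 genes used to read the cell cycle mark overlapping phases. Pcna, the clamp of DNA polymerase, and Rrm2, a subunit of ribonucleotide reductase, serve DNA synthesis, while Top2a, a topoisomerase, and Mki67, the Ki-67 protein, are highest later in the cycle. A UMI of at least 1 of them was found in 192 of 406 cells of P4 and 167 of 259 of E16. In P4 the histone sum was 435 CPM in cells with such a UMI and 173 CPM in cells without, 2.52-fold higher (2.08 to 3.08). In E16 it was 1400.0 CPM in cells with and 295 CPM in cells without, 4.75-fold higher (3.96 to 5.73). Cells with such a UMI held 80.2% of the histone UMIs of P4 and 93.5% of those of E16. The same cells held 1217073 of the 1975814 UMIs of all genes in P4 and 1284252 of the 1711606 in E16. They were also deeper, with medians of 4628 UMIs with and 3194 without in P4, and 6490 with and 4824 without in E16. Thinned to 1 depth the folds were 2.91 in P4 and 4.97 in E16. For all folds at 1 depth cells were sorted anew by their thinned counts, so they do not compare the same cells. That left 109 cells with such a UMI in P4 and 98 in E16. Each of the 4 genes gave a fold over 1 in both libraries. In P4 these were 3.46 for Top2a, 3.10 for Rrm2, 2.88 for Mki67 and 1.82 for Pcna, and in E16 5.30 for Top2a, 4.41 for Rrm2, 3.66 for Pcna and 3.14 for Mki67. At 1 depth Mki67 in E16 gave 1.69, with 13 cells that kept an Mki67 UMI.

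Cells that had UMIs from both pairs of cycle genes stood highest. In P4, 50 cells with a UMI of Pcna or Rrm2 and also of Mki67 or Top2a had 740 CPM of histone genes, and 127 cells with Pcna or Rrm2 alone had 246 CPM. The 15 cells with Mki67 or Top2a alone had 481 CPM (333 to 672), and 214 cells with none had 173 CPM. In E16 the same sets had 2000 CPM (1902 to 2101) in 79 cells, 439 CPM in 78 cells, 510 CPM (307 to 796) in 10 cells and 295 CPM in 92 cells. The cells with both pairs held 48.6% of the histone UMIs of P4 and 82.0% of those of E16, and their share of all UMIs is not given here. They were also the deepest set, with medians of 6006 UMIs in P4 and 8117 in E16, and the part of depth in finding both pairs was not tested within this split.

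**Figure D4:**
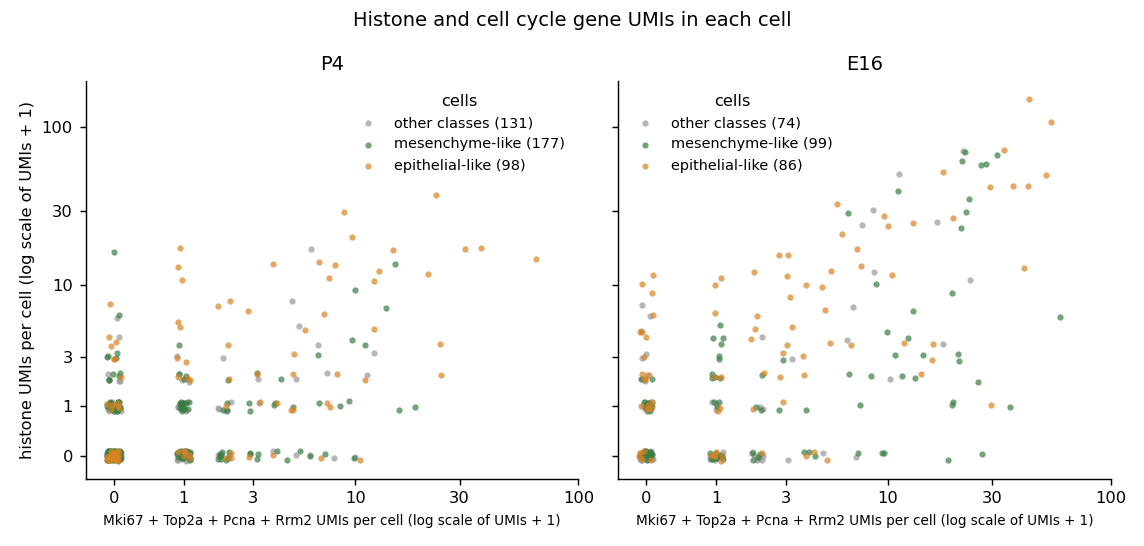
Histone UMIs against the summed UMIs of Mki67, Top2a, Pcna and Rrm2, 1 point per cell, with no thinning, for 406 P4 cells (left) and 259 E16 cells (right), on log scales of UMIs + 1 with a small random shift and colours by class. Spearman's rho over these points was 0.40 in P4 and 0.51 in E16.

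In the plot of single cells the points with many histone UMIs mostly have cycle-gene UMIs too, and most cells sit at or near 0 on both axes. Depth moves both axes, and over cells thinned to 1 depth the histone sum and the sum of the 4 genes had a Spearman rho of 0.24 in P4 (n = 365 cells) and 0.39 in E16 (n = 244 cells), with Pearson's r of 0.33 in P4 and 0.30 in E16. Cells of 1 library share that library, so these are descriptions. For the members other than Hist1h2bc, Hist1h1c and Hist2h2be rho was 0.29 in P4 and 0.38 in E16, and for those 3 it was 0.05 in P4 and 0.04 in E16. Between families, H1 and H2A counts had a rho of 0.14 in P4 and 0.55 in E16.

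Within classes the link was uneven. Epithelial-like cells of P4 had 633 CPM with a cycle-gene UMI and 236 CPM without, 2.68-fold (1.89 to 3.93). Those of E16 had 1760 CPM with and 1051 CPM without, 1.67-fold (1.31 to 2.18), and 3.25-fold at 1 depth. Their cells without such a UMI were shallow, with a median of 1757 UMIs against 6471 in those with. Mesenchyme-like cells of P4 had 201 CPM with and 159 CPM without, and the interval of the fold, 1.26 (0.900 to 1.78), includes 1. At 1 depth the fold was 3.13, between the 44 cells that kept such a UMI and the 131 others. With no thinning, Top2a alone gave 3.07 (2.12 to 4.38) in P4 mesenchyme-like cells. Mesenchyme-like cells of E16 had 1146 CPM with and 109 CPM without, 10.5-fold (6.42 to 18.5), and 5.24-fold at 1 depth. In endothelial-like cells the fold was 0.589 (0.270 to 1.30) in P4 and 3.45 (1.93 to 6.70) in E16. In macrophage-like cells of P4 it was 0.879 (0.307 to 2.40). All 18 histone UMIs of the P4 lymphoid-like cells lay in the 6 cells with a cycle-gene UMI.

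The stages also differed among cells with a cycle-gene UMI, where the ratio P4 over E16 was 0.311 (0.282 to 0.343), and among cells without, where it was 0.586 (0.455 to 0.754). In mesenchyme-like cells without such a UMI the ratio was 1.46 with an interval that includes 1 (0.833 to 2.71). In epithelial-like cells it was 0.360 (0.318 to 0.406) with and 0.224 (0.144 to 0.344) without.

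Gene by gene, the link also varied. In E16 Hist1h2ae was 23.1-fold higher in cells with a cycle-gene UMI (8.93 to 85.5), from 278 UMIs with and 4 without. Hist1h1b was 20.4-fold higher (11.3 to 41.1), from 675 UMIs with and 11 without. Hist1h2an was 14.0-fold higher, Hist1h1a 13.6-fold, Hist2h2ac 11.3-fold, Hist1h1e 6.07-fold and Hist1h4i 3.38-fold, with intervals above 1 for each. The intervals for Hist1h1c at 1.33, Hist1h2bc at 1.15 and Hist3h2ba at 0.808 included 1, and Hist3h2a was lower in cells with such a UMI, at 0.612 (0.388 to 0.980). The 17 UMIs of Hist1h3c and the 17 of Hist1h4d all lay in cells with a cycle-gene UMI.

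In P4 fewer members could be read. Hist1h1b was 8.10-fold higher in cells with a cycle-gene UMI (2.98 to 30.9), from 52 UMIs with and 4 without, and Hist1h2ae 5.82-fold (1.80 to 29.9), from 28 with and 3 without. Hist3h2ba had 29 UMIs in cells with and 1 in cells without, a ratio of 18.1 (3.0 to 738). Hist1h2bc was 2.56-fold higher (1.80 to 3.71) and Hist1h1c 2.36-fold (1.38 to 4.21). The intervals for Hist1h2al at 1.58 and Hist3h2a at 1.26 included 1. Cells of P4 with such a UMI were epithelial-like in 59 of 192 cases. Hist1h2bc and Hist3h2ba were higher in that class than in mesenchyme-like cells, and the part of class in these 2 folds was not tested. Of the 7 members with at least 30 UMIs in P4, 5 were at least 2-fold higher in cells with a cycle-gene UMI, where 10.4% of genes were, and of 11 in E16, 7 were, where 25.3% of genes were. Members that reached 30 UMIs only through the cells with such a UMI had to be higher there. These counts thus describe those genes, and no link is read from them.

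**Figure D5:**
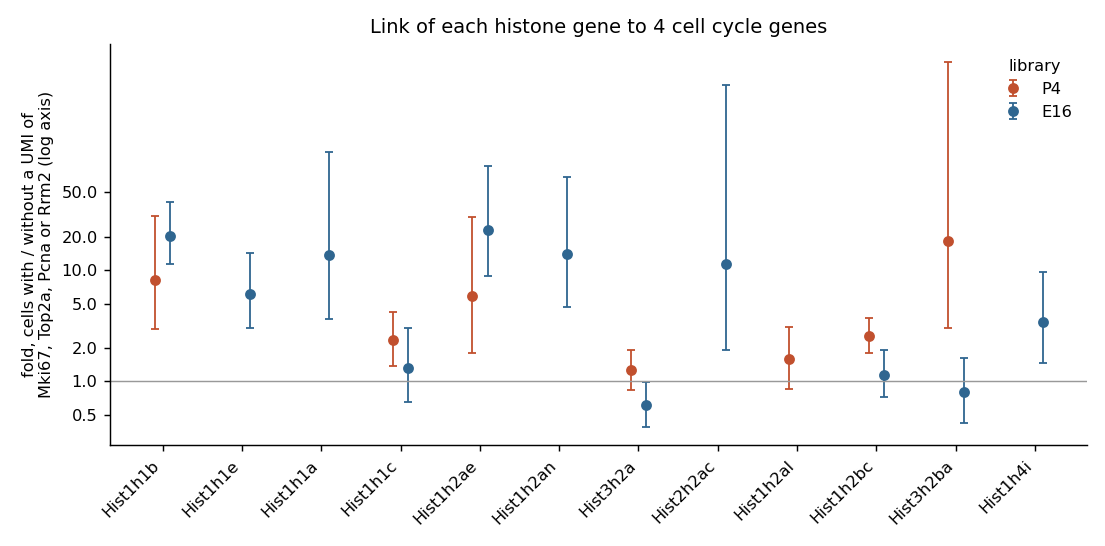
Fold of CPM in cells with over cells without a UMI of Mki67, Top2a, Pcna or Rrm2 (log axis), for the histone genes with at least 30 UMIs in a library, with exact 95% intervals. Hist1h1b was at 8.10 in P4 and 20.4 in E16, whereas Hist3h2a was at 1.26 in P4 and 0.612 in E16.

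The plot of folds by gene separates Hist1h2ae, Hist1h1b, Hist1h2an, Hist1h1a and Hist2h2ac, at over 10-fold in E16, from Hist1h2bc, Hist1h1c and Hist3h2ba, whose E16 intervals include 1, and Hist3h2a, whose E16 interval lies below 1. In P4 fewer genes reached 30 UMIs.

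Genes that work with histones were compared between the stages as lists. None of these lists had a member at least 2-fold higher in P4. Of S phase genes 18 of 43 compared were at least 2-fold lower in P4, with a median log2 ratio of -0.68, and of G2 and M phase genes 21 of 49, with a median of -0.89. Over all genes 14.2% were at least 2-fold lower, with a median of -0.20. The most abundant of each, Tyms (158 CPM in P4 and 209 CPM in E16), the thymidylate synthase, and Hmgb2 (405 CPM in P4 and 658 CPM in E16), a chromatin protein, were under 2-fold lower. Of genes for histone transcription and 3′ processing 6 of 14 were at least 2-fold lower, with a median of -0.69. Slbp, the stem-loop binding protein, had 47.1 CPM in P4 and 77.1 CPM in E16, and Eri1, an exonuclease of the stem-loop, had 27.8 CPM in P4 and 67.2 CPM in E16. Lsm10, part of the U7 particle that processes histone messages, had 72.4 CPM in P4 and 56.1 CPM in E16. Of histone chaperones 3 of 19 were at least 2-fold lower, a share near that of all genes, with a median of -0.38, among them Set, with 165 CPM in P4 and 471 CPM in E16.

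Replacement histones are made outside S phase as well. Of 11 compared 1 was at least 2-fold lower in P4, where 14.2% of all genes were, with a median log2 ratio of -0.46. In mesenchyme-like cells 4 of the 11 were at least 2-fold lower, where 13.7% of all genes were, with a median of -0.95. The medians there were -2.00 for the 4 cycle genes, -1.60 for G2 and M phase genes and -0.74 for S phase genes. They were -0.87 for histone transcription and processing, -0.74 for chaperones and -0.19 over all genes. H3f3b, which encodes H3.3, had 4022 CPM in P4 and 3771 CPM in E16, above the sum of all 69 members in either library. H2afz, which encodes H2A.Z, had 599 CPM in P4 and 848 CPM in E16. The 4 cycle genes had 145 CPM of Rrm2 in P4 and 365 CPM in E16, 171 CPM of Pcna in P4 and 217 CPM in E16, 91.1 CPM of Top2a in P4 and 235 CPM in E16, and 33.4 CPM of Mki67 in P4 and 73.6 CPM in E16. Rrm2, Top2a and Mki67 were thus at least 2-fold lower in P4, as the histone sum was.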

How the data were processed

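Per the labels, lacrimal glands of CD1 mice were pooled, dissociated and barcoded as single cells, with 1 library at postnatal day 4 and 1 at embryonic day 16. The authors deposited raw UMI counts, whole numbers for each gene in each barcode, and did not normalize them. Cell Ranger and the mm10 build were named in the submitters' processing notes. Its version, the annotation, strand use and the choice of barcodes were not given in the sources used. The files had 0 columns of no sample.

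Barcodes with at least 200 detected genes were kept. Scrublet called 1 doublet in P4 and 2 in E16, and these cells were kept. The libraries were clustered together (scanpy 1.11.5, Leiden, resolution 1, 2000 variable genes without the histone and cell-cycle genes, 20 components, 15 neighbours). A cluster took the class of its best-scoring markers among classes with at least 5 markers detected, a minimum set after the clusters had been seen. The members and all gene lists were chosen with earlier results of these data known.

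UMIs were summed over cells and divided by the total (CPM). Sums have exact Poisson intervals, shares Clopper-Pearson intervals and ratios exact conditional intervals (scipy 1.17.1). With 1 library per stage no p-value was computed. A gene was compared where it had at least 30 UMIs, and a fold of 2 was counted. For thinned values each cell was drawn down to 1342 UMIs. Named members had at least 30 UMIs in a library, are known for polyadenylated transcripts, or were among the 5 with the most UMIs of their family. From other lists the most abundant genes, at most 4, could be named, and of single cells the 3 with the most histone UMIs per library. The call of a fold of 2 and the ratio interval were tested on simulated Poisson gene totals, with no spread between cells. Thinning was checked for the depth it leaves, and the other steps were not tested on simulated data. Alternatives covered cell filters, totals, depth, doublets, members, single cells, clustering and the call of a cycling cell.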

Additional observations from a re-analysis of the deposited data

Results flagged for a closer look

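Hist1h2bc lay in opposite directions in the 2 large classes. Its ratio P4 over E16 was 3.31 in epithelial-like cells and 0.603 in mesenchyme-like cells, and the interval of the second includes 1. The difference between the classes was not tested. Hist3h2a lay the other way round, with 0.848 in epithelial-like cells and 1.94 in mesenchyme-like cells, or 1.17 there without the cell with the most histone UMIs in each library, and this difference was not tested either. Its epithelial-like ratio was 1.36 without the P4 cluster led by Dcpp genes and 1.77 at 1 depth, so its direction changed with these settings.

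Barcodes with fewer than 200 detected genes, which no comparison uses, also held histone UMIs. There were 16 in 13 of the 281 such barcodes of P4 and 10 in 7 of the 178 of E16. Hist1h2bc gave 7 of those 16 and 6 of those 10. Leaving haemoglobin genes out of the totals, the histone level in these barcodes was 468 CPM in P4 (268 to 760) and 441 CPM in E16 (211 to 811), beside 346 CPM in kept P4 cells and 1247 CPM in kept E16 cells.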

How the results depend on the processing

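No paired analysis was possible because each stage has 1 library, and for the same reason no replicate could be left out. Of 481 alternative values over 51 results, 0 turned round a ratio or fold whose interval excluded 1. However, 23 values of the leading results and 47 of the others were marked as moved. A ratio or fold was so marked where it lay outside the interval of its main value. The ratio of the histone sum, P4 over E16, was 0.298 in all cells, and 0.329 with CPM averaged over cells, 0.181 without the 3 members known for polyadenylated transcripts and 0.337 without the 10 cells with the most histone UMIs. In epithelial-like cells it was 0.450 with totals without the 50 most abundant genes, 0.395 averaged over cells, 0.393 at 1 depth, 0.170 without those 3 members and 0.384 without the Dcpp cluster. In mesenchyme-like cells it was 0.254 averaged over cells, 0.239 at 1 depth, 0.150 without the 3 members, 0.449 without the 10 cells and 0.0901 with every class a candidate name, which left 39 cells in E16. The link to the cycle genes in E16 was 15.2-fold for cells with at least 3 S phase or G2 and M genes, 3.71-fold for cells with at least 500 genes and 6.05-fold without the 3 members. The share in 10 cells was 36.4% in P4 and 30.4% in E16 at 1 depth, and 35.8% in P4 and 42.2% in E16 without the 3 members. Unthinned, the rank correlation was 0.40 in P4 and 0.51 in E16. The cause of these moves was not tested. The alternatives on the Dcpp cluster, candidate names, unthinned correlation, leaving out Hist1h2al and cells with a cycle-gene UMI only were chosen after seeing the data. Counts of 0 to 10 UMIs limit most H3 and H4 genes.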
